A study of Mus musculus with 3 samples.

Results

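The 10 genes described here are Atf4, a transcription factor of the integrated stress response, and 9 genes known as its targets or partners: Asns, Psat1, Phgdh, Shmt2, Mthfd2, Pycr1, Chac1, Ddit3 and Trib3. They are 10 of the 27998 genes in the single-cell RNA-sequencing (scRNA-seq) count tables, and all 10 were found there by symbol. They were read over crypt, adenoma and villus cells of 3 libraries of sorted mouse intestinal epithelium. The list was drawn up with earlier values of these data known, in part because Pycr1 was high in an adenoma state, so the Pycr1 values in adenoma cells are given as a description.

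Cells under amino acid shortage, endoplasmic reticulum stress or other stress phosphorylate the initiation factor eIF2α, which lowers general translation and favours translation of Atf4 mRNA. The Atf4 protein then raises genes for amino acid synthesis and uptake, while Ddit3 (CHOP), Trib3 and Chac1 mark a stronger or longer response. Because Atf4 is set largely at translation, its mRNA level is not a measure of its activity. Phgdh and Psat1 catalyse the first steps from glycolysis to serine, Shmt2 and Mthfd2 pass the serine carbon into mitochondrial folate metabolism for nucleotide synthesis, Pycr1 makes proline in mitochondria, and Asns makes asparagine. Growing cells of the crypt, and tumour cells, use these routes heavily.

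The libraries came from C57BL/6 mice that had 2 doses of 2 mg tamoxifen at 7 to 8 weeks of age, with 1 mouse and 1 library per genotype. WT tissue was taken on day 21. LApc mice (Lgr5-CreERT2;Apc fl/fl), in which tamoxifen removes the Wnt pathway brake Apc from Lgr5+ stem cells, were taken on day 29. LApcL mice carried the same alleles together with Lef1 fl/fl, so that they also lose the Wnt transcription factor Lef1, and were taken on day 21. Whether the WT mouse carried the Cre is not given in the labels. Cre acts in Lgr5+ cells only, so the LApc and LApcL intestines hold recombined and normal cells side by side, and all cells had passed a sort for surface EpCAM. Genotype, mouse, library and, for LApc, day cannot be told apart, so no test between genotypes was possible and no p value is given.

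The tables held 11453 WT, 13214 LApc and 17388 LApcL barcodes, with 79696291 to 191509615 unique molecular identifiers (UMIs, counted molecules) a library, and 10138, 9601 and 14394 cells were kept. Between 1.87 and 2.52% of a library's barcodes also occurred in another library. In LApc, 17.7% of barcodes were over the limit of 20% mitochondrial UMIs, against 0.541% in WT and 2.38% in LApcL. The heat shock gene Hspa1a stood at 46.5 to 47.4 CPM (a gene's UMIs for every 1000000 UMIs of the class) in WT crypt and enterocyte-like cells and at 0.683 or lower in those of the other libraries. Adenoma-enriched cells were subclusters of the Wnt and transit-amplifying class with under 10% of their cells from WT, 8 cells in WT, 1288 in LApc and 9308 in LApcL, and carried the adenoma markers Sox17 (181 and 314 CPM in LApc and LApcL, 0 in WT crypt) and Notum. Crypt cells were the rest of that class, 3029, 2179 and 1411 cells, and enterocyte-like cells stood for the villus, 2776, 3485 and 1681 cells. Epcam mRNA was at 1464 to 2044 CPM in crypt, adenoma-enriched and enterocyte-like cells and the leukocyte gene Ptprc at 1.30 CPM or lower. Lef1 stood at 21.5 CPM in the adenoma-enriched cells of LApc against 3.55 CPM in those of LApcL, while Apc was not lower there than in crypt cells. UMIs from the 3′ end of Apc may lie outside the deleted part, so they check nothing.

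Genes known to be bound by Atf4 often carry the composite motif TGATGNAA, which Atf4 binds together with a C/EBP partner. It was searched, on both strands, in the 250 bases before each RefSeq start site (GRCm38.p6). It stood in 3 of the 10 members, Asns, Pycr1 and Chac1, and in 3.91% of all 27025 genes. The 3 stretches are shown because these are the windows with the motif, 5′ to 3′ on the strand of the gene, with the motif in capitals.
Asns, chr6:7693214-7693243, minus strand: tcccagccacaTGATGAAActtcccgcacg
Pycr1, chr11:120643833-120643862, minus strand: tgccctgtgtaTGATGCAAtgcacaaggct
Chac1, chr2:119351038-119351067, plus strand: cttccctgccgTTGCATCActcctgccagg
The Asns motif lay 23 to 16 bases before the start, that of Pycr1 103 to 96 bases, and that of Chac1 193 to 186 bases, the last read on the opposite strand. No match was found in the windows of the other 7 members, which says only that these letters are not there. A match is not a measured binding site. All 3 genes with a match, and Atf4 without one, had more CPM in mucus-secreting goblet-like cells than in crypt or enterocyte-like cells of each library. The step over crypt cells was under 2-fold for Atf4 in each library and for Asns in LApc and LApcL. Chac1 stayed under 10 CPM in these cells. A link of this pattern to the motif was not tested. Over crypt, adenoma-enriched and enterocyte-like cells the 3 did not share 1 pattern.

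The genes are taken by role. All intervals are 95% intervals that cover counting error only, with no mouse-to-mouse error. A gene was read as higher or lower where its CPM differed 2-fold or more and reached 10 CPM on at least 1 side.

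**Figure D1:**
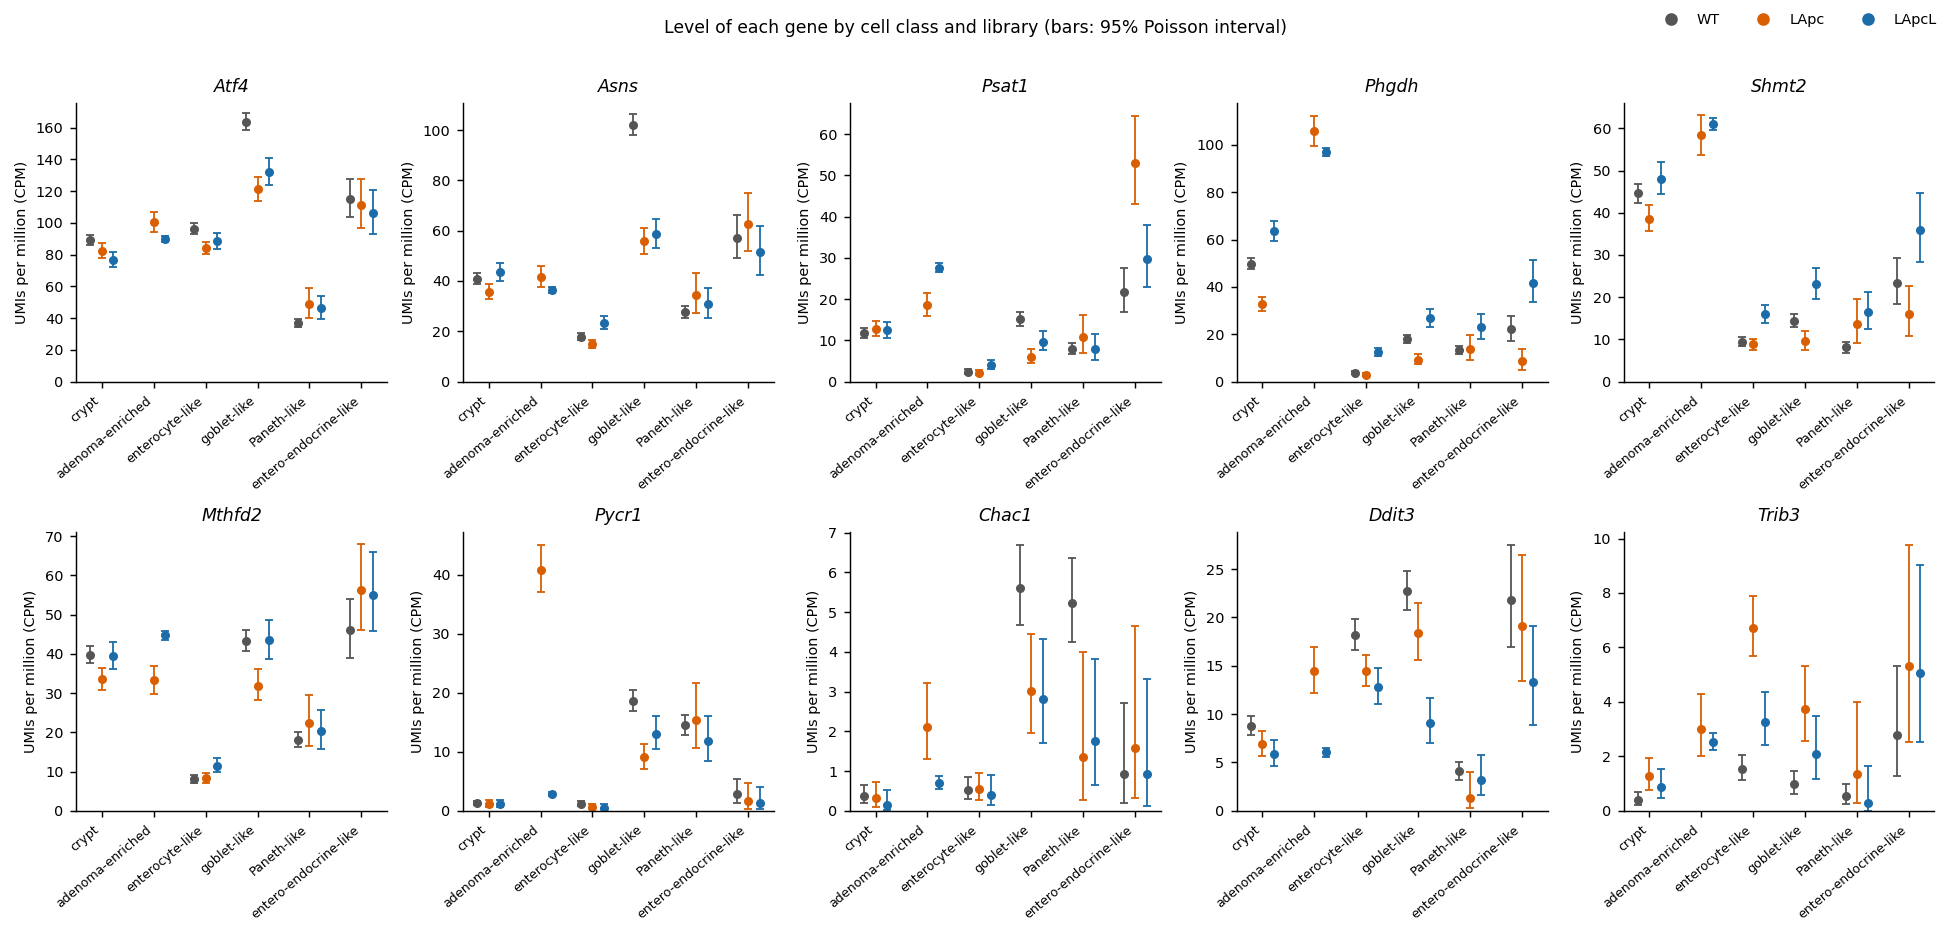
Levels of the 10 genes (CPM, linear axes from 0, 1 panel a gene) in 6 cell classes, with 1 point for each of the WT, LApc and LApcL libraries and bars for 95% Poisson intervals (adenoma-enriched cells only in LApc and LApcL). Phgdh, Psat1, Shmt2 and Mthfd2 sit lower in enterocyte-like than in crypt cells of each library, and Pycr1 stands apart in LApc adenoma-enriched cells at 40.8 CPM.

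Crypt cells carried far more of the serine and folate enzymes than villus cells in each library. Phgdh (chromosome 3, 98313170 to 98339990, minus strand), the first enzyme of serine synthesis, was at 49.7, 32.7 and 63.6 CPM in WT, LApc and LApcL crypt cells, while their enterocyte-like cells held 3.68, 2.79 and 12.4 CPM. The crypt level was above the villus level in all 3 libraries, and the log2 ratios were 3.76 (3.48 to 4.05), 3.55 (3.17 to 3.96) and 2.35 (2.12 to 2.59). Psat1, the next enzyme of the route, was at 11.8, 12.8 and 12.4 CPM in crypt cells and at 2.38, 2.06 and 4.03 CPM in enterocyte-like cells.

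Shmt2, which splits serine into glycine and a folate-bound carbon, followed the same order, with 44.7, 38.6 and 48.1 CPM in crypt cells against 9.46, 8.79 and 15.9 CPM. Mthfd2, which oxidises that carbon unit in mitochondria, was at 39.8, 33.5 and 39.4 CPM against 8.03, 8.38 and 11.5 CPM. Asns was at 40.8, 35.7 and 43.6 CPM in crypt cells and 17.8, 15 and 23.4 CPM in enterocyte-like cells, a smaller step of 1.19 (1.05 to 1.34), 1.25 and 0.90 on the log2 scale. In WT 5 of the 7 members tested were 2-fold higher in crypt cells, beside 17.7% of all genes tested, in LApc 5 of 7 beside 21.6%, and in LApcL 4 of 7 beside 13.2%, where Asns fell short. The call of Asns turns on the scaling, since its ratio became 0.99 in WT with TMM factors (a scaling that trims the most different genes) and 1.16 in LApcL with ribosomal protein and mitochondrial genes left out of the total. Crypt cells divide and enterocytes do not: all 28 genes of a cell-cycle list were 2-fold higher in WT crypt cells as well, and the part of cycling in these values was not tested.

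Ddit3, a pro-apoptotic partner of C/EBP factors, ran the other way. It was at 8.79, 6.87 and 5.87 CPM in crypt cells and 18.2, 14.5 and 12.8 CPM in enterocyte-like cells, log2 ratios of −1.05 (−1.26 to −0.84), −1.07 and −1.12. It was the 1 member 2-fold lower in crypt cells in each library, beside 14.4% of all genes in WT, 14.8% in LApc and 14.7% in LApcL. With ribosomal protein and mitochondrial genes left out of the total its ratios were −0.79, −0.79 and −0.86, under 2-fold in all 3 libraries. The WT ratio was also −0.97 with doublets kept, and the LApc ratio −0.90 at a mitochondrial limit of 10%. Ddit3 shares its locus with Mars and Gm4189 on the opposite strand, and whether the counting used strand is not given in the sources used here. Atf4 itself hardly differed, with 89.4, 82.4 and 76.6 CPM in crypt cells and 96.3, 84.2 and 88.3 CPM in enterocyte-like cells. Its log2 ratio was −0.11 in WT, −0.03 in LApc and −0.21 in LApcL, and in WT it became 0.16 without ribosomal protein and mitochondrial genes in the total.

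Related enzymes of the same routes, from a list of 16 genes for serine, glycine and folate metabolism, differed in part like the members. Of those tested, 4 of 9 were 2-fold higher and 1 lower in crypt than in enterocyte-like cells of WT, 5 of 10 and 1 in LApc, and 5 of 10 and 1 in LApcL, against the shares of all genes given above. Of the 20 cytosolic aminoacyl-tRNA synthetases, which load amino acids onto tRNA and include many Atf4 targets, 4 were 2-fold higher in WT crypt cells, 6 in LApc and 2 in LApcL, beside 17.7, 21.6 and 13.2% of all genes, so these counts are near the background, and none was lower.

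In adenoma-enriched cells of both genotypes the serine enzymes stood above the crypt level of the same library, Phgdh most in LApc and Psat1 most in LApcL. Phgdh was at 106 CPM (99.5 to 112) in LApc and 97.0 CPM (95.1 to 98.8) in LApcL adenoma-enriched cells, against 32.7 and 63.6 CPM in the crypt cells beside them. The adenoma levels of the 2 genotypes lay close together and the crypt levels did not. The log2 ratio of adenoma-enriched over crypt cells was 1.69 (1.54 to 1.85) in LApc and 0.61 (0.51 to 0.71) in LApcL.

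Psat1 was at 18.5 CPM (15.9 to 21.4) in LApc and 27.7 CPM (26.7 to 28.7) in LApcL adenoma-enriched cells, and at 12.8 and 12.4 CPM in crypt cells. Its log2 ratio was 0.53 (0.23 to 0.82) in LApc and 1.16 (0.93 to 1.39) in LApcL, so the 2 serine enzymes changed rank between the genotypes. Shmt2 was at 58.4 and 61.1 CPM in adenoma-enriched cells, with ratios of 0.60 and 0.34. Mthfd2 was at 33.2 and 44.7 CPM, with ratios of −0.01 (−0.21 to 0.19) and 0.18 (0.05 to 0.31).

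Asns was at 41.5 CPM in LApc and 36.4 CPM in LApcL adenoma-enriched cells. Its ratio to crypt cells was 0.22 (0.03 to 0.40) in LApc and −0.26 (−0.38 to −0.13) in LApcL, and the LApc value fell to −0.08 with TMM factors. Atf4 was at 100.4 and 89.7 CPM in adenoma-enriched cells, with ratios of 0.29 in LApc, which became −0.01 with TMM factors, and 0.23 in LApcL. TMM factors moved every ratio of adenoma-enriched over crypt cells by −0.30 in LApc and −0.14 in LApcL, and every ratio of LApcL over LApc adenoma-enriched cells by 0.23. Asns and Atf4 thus stayed well within 2-fold of the crypt level in both genotypes.

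The 10 genes were picked in part because Pycr1 marks an adenoma state, so counts of members in comparisons of adenoma cells are a description and nothing is read from them. In LApc, Pycr1, Phgdh and Ddit3 were 2-fold higher in adenoma-enriched than in crypt cells, as were 15.9% of all genes, and in LApcL Psat1 was, as were 7.26% of all genes. The LApc ratio of Ddit3, 1.07, fell under 2-fold with TMM factors (0.77), without ribosomal protein and mitochondrial genes (0.88) and with adenoma-enriched cells taken from the integrated clusters (0.99) or by marker UMIs (0.97). The LApcL ratio of Psat1 became 0.99 with cells taken by marker UMIs. Between the genotypes, Pycr1 and Ddit3 were 2-fold lower in LApcL than in LApc adenoma-enriched cells, as were 8.07% of all genes. Phgdh differed by −0.13, or 0.11 with TMM factors.

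**Figure D2:**
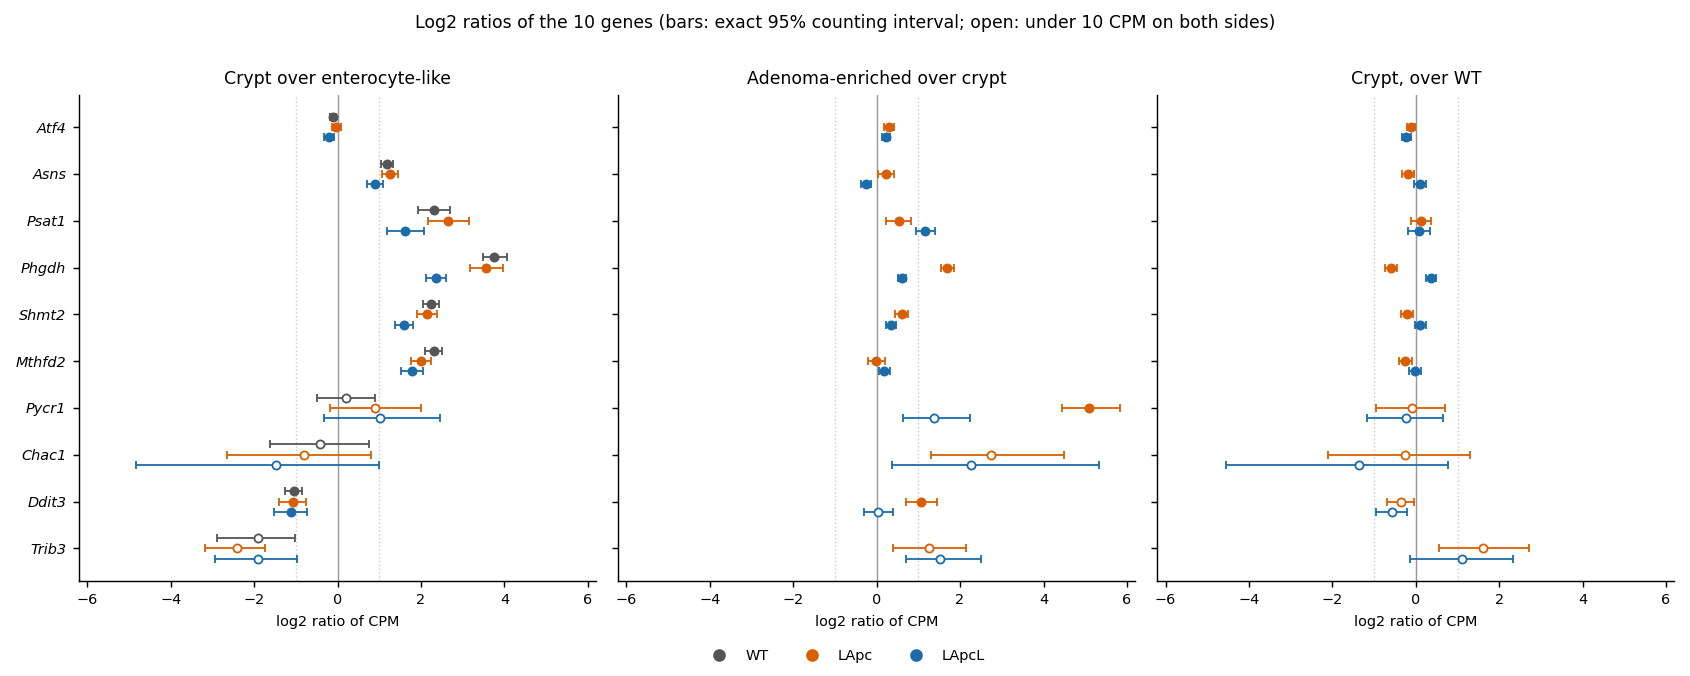
Log2 ratios of CPM for the 10 genes (x axis) in crypt over enterocyte-like cells, in adenoma-enriched over crypt cells, and in crypt cells of LApc and LApcL over WT, coloured by library, with bars for exact 95% counting intervals, dotted lines at 2-fold and open points where both sides are under 10 CPM. Pycr1 lies at 5.09 in adenoma-enriched over crypt cells of LApc, and Phgdh lies at 3.76 in crypt over enterocyte-like cells of WT.

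Pycr1 (chromosome 11, 120635712 to 120643769, minus strand) was the member with the widest range. It was at 1.28, 1.2 and 1.1 CPM in WT, LApc and LApcL crypt cells (44, 19 and 15 UMIs) and at 1.12, 0.641 and 0.547 CPM in the enterocyte-like cells of those libraries. It reached 40.8 CPM in LApc adenoma-enriched cells (interval 37 to 45, on 408 UMIs) and 2.87 CPM in the LApcL ones (interval 2.56 to 3.21, on 317 UMIs). LApc adenoma-enriched cells were thus far above every crypt and villus value, and LApcL ones were above them by a smaller step. As a description, the log2 ratio to crypt cells was 5.09 (4.43 to 5.84) in LApc and 1.38 (0.64 to 2.24) in LApcL, where both sides were under 10 CPM, and the log2 ratio of LApcL to LApc adenoma-enriched cells was −3.83 (−4.05 to −3.62).

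The gene was also present outside the adenoma. Goblet-like cells, which secrete mucus, held 18.6, 9.07 and 13 CPM of Pycr1 in WT, LApc and LApcL, and Paneth-like cells, which secrete antimicrobial peptides, held 14.5, 15.5 and 11.7 CPM. Both secretory classes were thus above the crypt and enterocyte-like levels in all 3 libraries. Enteroendocrine-like cells held 2.80 CPM in WT, 1.59 in LApc and 1.38 in LApcL, on 9, 3 and 3 UMIs.

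Within the adenoma, Pycr1 was concentrated in 1 state of 1 genotype. The adenoma-enriched cells fell into 5 subclusters made without the members, named here by their leading genes. Wfdc18-led cells numbered 640 in LApc and 1603 in LApcL. With the libraries pooled, Wfdc18, Ly6d, Clu, Lcn2 and Wif1 were among their leading genes. In the groups of LApc cells given below, Wfdc18 was at 549 to 5862 CPM, Lcn2 at 25.4 to 880 CPM and Wif1 at 108 to 372 CPM. In those of LApcL they were at 30.5 to 326, 0.138 to 5.42 and 0.551 to 7.07 CPM, while the ranges of Ly6d overlapped. The name thus describes the LApc cells better. Wfdc18-led cells held 83.1 CPM of Pycr1 in LApc (74.8 to 92.0) and 3.85 CPM in LApcL (2.93 to 4.96). Mt4-led cells held 9.79 and 2.78 CPM, S100g-led cells 9.06 and 2.70 CPM, and Atp4a-led cells 1.97 and 2.44 CPM, on 3 UMIs in LApc. In LApc the Wfdc18-led state stood above the rest of the adenoma by 3.53 (3.06 to 4.04) on the log2 scale, while 5.58% of all genes were 2-fold higher there and no other member was. Pycr1 was picked for this state, so the value is a description. In LApcL the same ratio was 0.50 (0.07 to 0.92) with both sides under 10 CPM, and 1.46 at the finer clustering resolution. Between the genotypes the cells of this subcluster differed by −4.43 (−4.85 to −4.03) for Pycr1 and −1.18 (−1.59 to −0.78) for Ddit3, and 9.34% of all genes were 2-fold lower in LApcL. These ratios set side by side cells that were unlike in Wfdc18, Lcn2 and Wif1, so they do not show a change within 1 cell state.

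Single cells showed the same unevenness. In LApc, 142 of 640 Wfdc18-led cells (22.2%) had a Pycr1 UMI, 72 of them had 2 or more, and those 72 cells carried 298 of the 368 UMIs, with 23 in the highest cell. In LApcL, 47 of 1603 cells (2.93%) had one, 3 had 2 or more, and the highest had 11. After each cell was thinned to 3000 UMIs, leaving out 14 LApc and 1 LApcL cells below that depth, the shares were 13.9% (exact binomial interval 11.3 to 16.9) and 0.936% (0.525 to 1.54). Crypt cells gave 0.423 to 0.594% and enterocyte-like cells, the background for free RNA, 0.180 to 0.396% at the same depth. Median UMIs before thinning were 6397 and 8903 in the LApc and LApcL state and 6208 to 9746 in enterocyte-like cells. The LApcL share was above those of LApcL crypt cells (0.427%, 0.157 to 0.927) and enterocyte-like cells (0.180%, 0.037 to 0.526), with intervals that overlapped. The LApc share was far above those of LApc crypt and enterocyte-like cells.

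When the Wfdc18-led cells of each library were clustered on their own, a step added after the data were seen, a group of 181 LApc cells led by Pnliprp1, Mt4, Ptn, Ly6d, Apoa2 and Pnliprp2 held 249 CPM of Pycr1 (220 to 281), 72.3% of all Pycr1 UMIs of the state, in 46.4% of its cells. The other LApc groups were led by Cxcl9 (61 cells, 37.1 CPM), Gip (244 cells, 33.1 CPM) and Vim (154 cells, 19.6 CPM). The highest LApcL group was led by Clu, with 8.72 CPM in 436 cells. These groups of cells were found after the values of the state were known and each stands for 1 mouse.

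**Figure D3:**
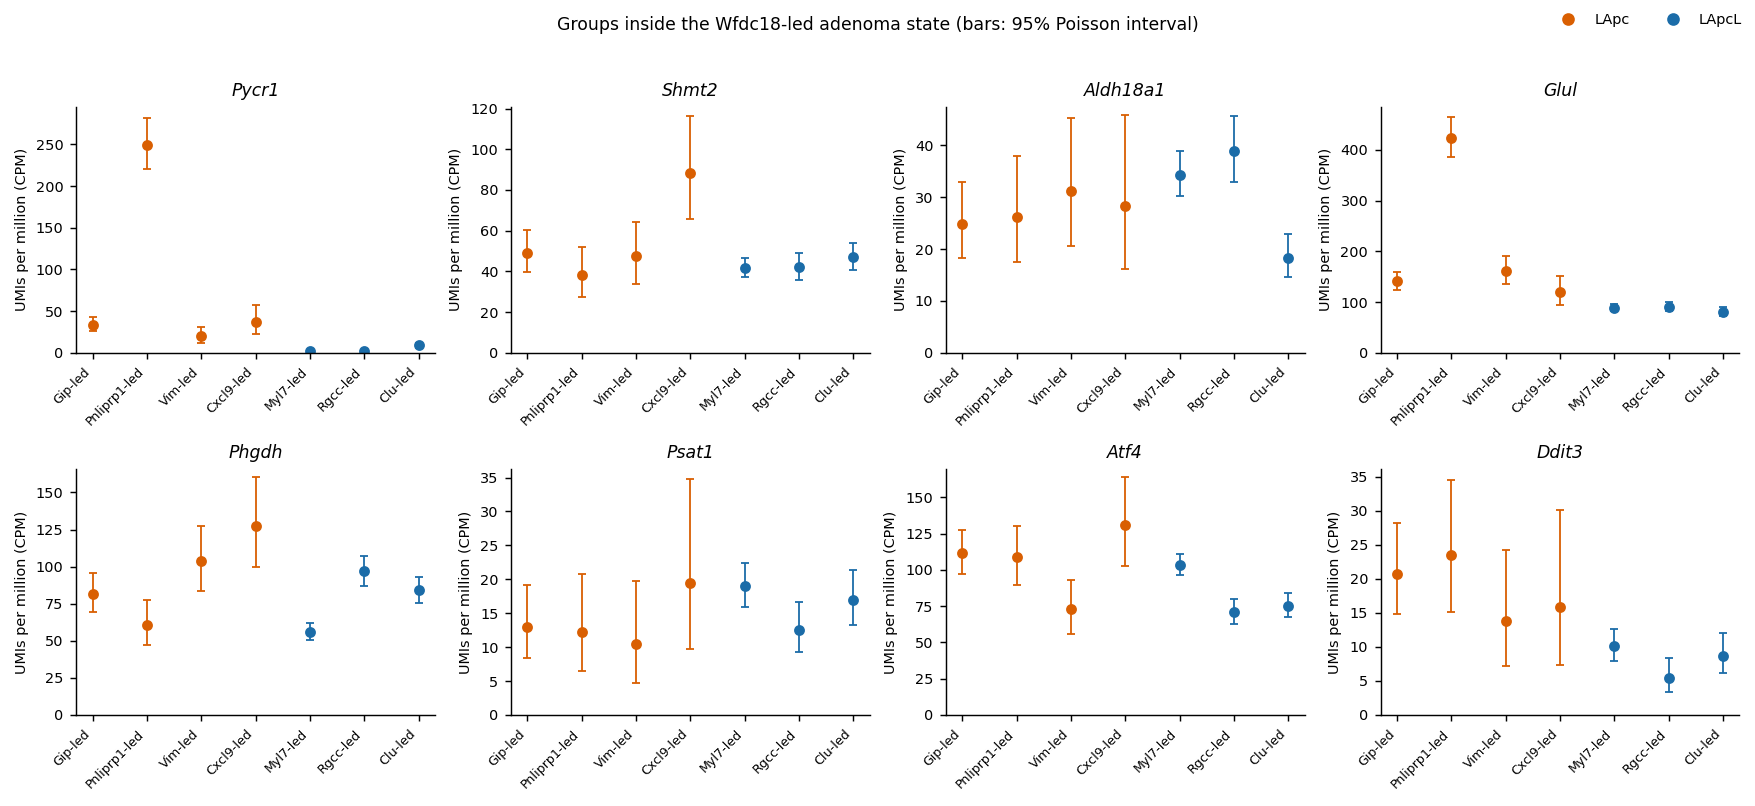
Levels of Pycr1, Shmt2, Aldh18a1, Glul, Phgdh, Psat1, Atf4 and Ddit3 (CPM, bars for 95% Poisson intervals) in the groups found inside the Wfdc18-led adenoma state, 4 groups of LApc cells and 3 of LApcL cells, each library clustered on its own. In the Pycr1 panel the Pnliprp1-led group of LApc stands at 249 CPM, the other 3 LApc groups at 19.6 to 37.1 CPM and the LApcL groups at 8.72 CPM or lower, and Glul has the same high group.

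The cells with 2 or more Pycr1 UMIs were not rich in the serine enzymes. Among LApc Wfdc18-led cells with no, 1 and 2 or more Pycr1 UMIs, Phgdh was at 93.1, 93.3 and 35.4 CPM and Shmt2 at 53.8, 60.3 and 22.9 CPM. Psat1 was at 11.35, 27.2 and 10.4 CPM, on 39, 14 and 5 UMIs, so it was highest in cells with 1. Asns was at 44.8, 52.5 and 27.1 CPM, and its first and last intervals overlapped (38.0 to 52.5 and 14.4 to 46.3). Atf4 was level, at 108, 89.4 and 106 CPM. Glul, which makes glutamine from glutamate, went the other way with 114, 317 and 792 CPM, as did the metallothionein gene Mt3 with 87.3, 202 and 1013 CPM. The split uses Pycr1 counts, which can favour deeper cells. The 498, 70 and 72 cells held 3436067, 514445 and 479642 UMIs, so those with 2 or more were not deeper on average.

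Over the whole state the serine and folate enzymes were also lower than in the rest of the adenoma. In LApc the log2 ratios were −0.80 (−1.28 to −0.34) for Psat1, −0.61 for Mthfd2, −0.48 for Phgdh and −0.32 for Shmt2, and in LApcL −0.81, −0.87, −0.45 and −0.56. Atf4 and Asns differed by 0.13 and 0.14 in LApc and by −0.04 and −0.01 in LApcL, with intervals that include 0. Phgdh was highest in Mt4-led (145 and 107 CPM) and S100g-led cells (134 and 114 CPM) and lowest in Atp4a-led cells (73.6 and 74.3 CPM) and, in LApcL, as low in Wfdc18-led cells (74.0 CPM).

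The make-up of the adenoma-enriched class differed between the genotypes, with 640 of 1288 cells Wfdc18-led in LApc and 1603 of 9308 in LApcL. The Wfdc18-led cells of the genotypes were themselves unlike in Wfdc18, Lcn2 and Wif1, as given above. Over the whole class Psat1 was 0.58 (0.36 to 0.80) and Mthfd2 0.43 (0.27 to 0.59) higher in LApcL on the log2 scale. Within the Wfdc18-led, Mt4-led and S100g-led states Mthfd2 differed by 0.02, 0.13 and 0.19, with intervals that include 0, and in Atp4a-led cells by 0.63 (0.15 to 1.15). Psat1 differed by 0.36, 0.36, 0.11 and 0.39 in these 4 states, and the interval left out 0 in Mt4-led cells alone (0.02 to 0.72).

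Among the adenoma states, the Wfdc18-led state of LApc carried the highest summed level of a list of 14 dissociation and immediate early genes, 1710 CPM against 1146 in LApcL, and of the stromal list, 370 against 7.56 CPM, where 3 of the 8 stromal markers were at 0 in LApc. The immune list was at 868 against 239 CPM, and highest in the Prss2-led cells of LApc, at 2611 CPM. Most of that stromal sum was Vim alone. Vim was at 1005 CPM in the Vim-led group of LApc, 254 CPM in the Pnliprp1-led group itself, 180 CPM in the Gip-led and 72.4 CPM in the Cxcl9-led group. Ptprc was at 0.226 CPM in the state, and the part of these genes in the Pycr1 value was not tested.

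Pycrl, Oat and Aldh18a1, which act at other points of proline synthesis, were not raised with Pycr1. Pycrl, the cytosolic relative, was lower in adenoma-enriched cells by ratios of −1.34 and −0.88 in LApc and LApcL, and Oat, which links ornithine to the same intermediate, by −1.19 and −0.39. Aldh18a1, which starts proline synthesis from glutamate, had ratios of −0.82 and −0.36. In the Pnliprp1-led group of LApc, Aldh18a1 stood at 26.2 CPM, inside the range of the other LApc groups, while Glul stood at 425 CPM against 120 to 162 CPM.

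The genes whose pattern was most like that of Pycr1, over 43 points of cell state and library with at least 50 cells, were Mt3 (Pearson r = 0.817 of log2(CPM + 10)), Nupr1 (0.76), Smim3 (0.742), Gbp2 (0.725) and Pnliprp2 (0.716). Among the members Chac1 reached 0.628, Asns 0.396 and Atf4 0.099. For Psat1 they included Slc29a1 (0.884), a nucleoside transporter, Mthfd2 (0.865), Impdh1 (0.86), an enzyme of guanine nucleotide synthesis, and Mthfd1l (0.832), which releases formate from mitochondrial folate. Points of 1 library share its depth and mouse, so these values are a description.

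The stress effectors were low outside a few places. Ddit3 was at 14.4 CPM (12.2 to 17.0) in LApc and 6.05 CPM in LApcL adenoma-enriched cells, and its ratio to crypt cells was 1.07 (0.70 to 1.44) in LApc and 0.04 in LApcL, the latter with both sides under 10 CPM. In Wfdc18-led cells it was at 19.4 and 8.54 CPM. Trib3, a pseudokinase that restrains the response, was at 3.00 and 2.53 CPM in adenoma-enriched cells and at 0.409, 1.26 and 0.881 CPM in WT, LApc and LApcL crypt cells. Chac1, which breaks down glutathione, was at 2.1 and 0.706 CPM in adenoma-enriched cells, on 21 and 78 UMIs. It was at 5.62, 3.02 and 2.81 CPM in goblet-like cells and at 5.23, 1.36 and 1.76 CPM in Paneth-like cells of WT, LApc and LApcL, the last 2 on 3 and 6 UMIs. LApc S100g-led adenoma cells stood at 4.03 CPM on 4 UMIs. Chac1 and Trib3 never reached 10 CPM in crypt, adenoma-enriched or enterocyte-like cells taken whole, so neither was tested there.

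Other targets of Atf4 in the stress response, a list of 16 genes, were higher in LApc adenoma-enriched cells than in crypt cells for 6 of 12 tested, with a median log2 ratio of 1.42, and in LApcL for 2 of 8, beside 15.9% and 7.26% of all genes. Atf3, a stress-induced repressor, was at 33.3 CPM against 1.2 CPM in LApc, and the secreted stress factor Gdf15 at 32.1 against 2.08 CPM. In LApcL the 2 were Nupr1 (ratio 1.46) and Sqstm1 (1.08). Between the genotypes 4 of 12 were 2-fold lower in LApcL adenoma-enriched cells, beside 8.07% of all genes, Gdf15 by −3.43 and Nupr1 by −3.00 at the far end. Immediate early and dissociation genes stood higher over the same step, 7 of 11 tested in LApc and 5 of 11 in LApcL beside the same 15.9% and 7.26%, with summed levels of 1421 and 875 CPM in adenoma-enriched cells against 469 and 456 CPM in crypt cells. Their part in the stress genes was not tested.

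Lists nearer to protein synthesis held few genes past 2-fold, apart from the amino acid transporters in LApc. No aminoacyl-tRNA synthetase of 20 was 2-fold higher or lower in adenoma-enriched cells of either genotype, with Gars highest at 0.73 in LApc and 0.92 in LApcL. Of the 18 chaperones and unfolded protein response genes, 0 of 16 tested passed 2-fold in LApc, and in LApcL 1 of 15, Herpud1, was lower at −1.58. Of the 9 upstream kinases and regulators, the kinase Eif2ak3 (PERK) was 2-fold higher in LApc, at 11.7 CPM against 5.79 CPM, beside 15.9% of all genes. With the TMM shift of −0.30 it falls under 2-fold. None of 7 was 2-fold higher in LApcL. Among 10 amino acid transporters, Slc1a4, which carries serine and alanine, was higher in both, with ratios of 2.48 and 1.91, and Slc6a9, a glycine carrier, was higher by 2.12 in LApc. In all, 3 of 8 transporters tested passed in LApc, beside 15.9% of all genes, and 1 of 7 in LApcL, beside 7.26%, where a single gene is near the background. Of the serine and folate list, 1 of 11 was higher and 1 lower in LApc, Amt of glycine cleavage (2.13) and Cth, which makes cysteine (−2.32), and Cth alone was lower in LApcL (−1.77). The share of all genes 2-fold lower in adenoma-enriched than in crypt cells is not given here. Nothing is therefore read from the counts of lower genes, Herpud1 and Cth.

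Within the adenoma the serine and folate enzymes were higher in cells with a higher cell-cycle share, and Pycr1 was not. Cells were ranked by the share of their UMIs that came from 28 cell-cycle genes and cut into tertiles. From the lowest to the highest tertile, Phgdh was at 59.9, 104 and 137 CPM in LApc and 76.7, 97.8 and 111 CPM in LApcL. Psat1 was at 7.86, 15.6 and 27.7 CPM and at 15.8, 27.5 and 36.5 CPM, and Mthfd2 at 16.1, 24.3 and 51.3 CPM and at 30.1, 43.6 and 56.2 CPM. Each step of these genes went up in both libraries.

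Pycr1 went down in LApc, with 74.9, 49.0 and 12.4 CPM, and was flat in LApcL, with 2.98, 2.97 and 2.71 CPM. Asns was flat in both, with 39.7, 42.7 and 41.8 CPM in LApc and 34.9, 37.0 and 37.0 CPM in LApcL. Median UMIs rose over the tertiles too, from 5660 to 9790 in LApc and from 9419 to 13434 in LApcL. In crypt cells Mthfd2 also went up, with 24.0, 44.3 and 47.6 CPM in WT, 23.7, 35.3 and 38.9 CPM in LApc and 18.3, 37.6 and 56.2 CPM in LApcL, whereas Phgdh in crypt cells had no common direction, with 54.3, 48.4 and 47.4 CPM in WT, 28.3, 37.5 and 31.5 CPM in LApc and 54.9, 70.2 and 63.8 CPM in LApcL. The tertiles are ranges of a score and not cell types. The adenoma states differ in cycling too. With the libraries pooled, the cell-cycle gene Mki67 was at 25.2 CPM in Wfdc18-led and Atp4a-led cells. It was at 137 CPM in Mt4-led, 148 CPM in S100g-led and 98.4 CPM in Prss2-led cells. Pycr1 was picked for the Wfdc18-led state, so its tertile values are a description. The part of the states in the tertile values was not tested.

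Crypt cells of the mutant intestines, taken as the rest of the Wnt and transit-amplifying class, differed little from WT in these genes. None of the 6 members tested was 2-fold higher or lower in LApc against WT crypt cells, beside 1.19% of all genes higher and 0.834% lower, and none of 6 in LApcL, beside 1.34% and 1.5%. Both comparisons share the WT library. The member with the widest difference was Phgdh, at 49.7 CPM (47.4 to 52.1) in WT, 32.7 CPM (30.0 to 35.7) in LApc and 63.6 CPM (59.5 to 68.0) in LApcL, log2 ratios to WT of −0.60 (−0.75 to −0.46) and 0.36 (0.24 to 0.47). Its 3 levels did not overlap in counting error, with LApc lowest and LApcL highest.

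By crypt subcluster, Phgdh was at 82.1, 45 and 76.9 CPM in Olfm4-led cells, which also lead in Lgr5, at 73.5, 50.4 and 80.8 CPM in Clca3b-led cells and at 25.8, 21.0 and 38.3 CPM in Dmbt1-led cells. The low LApc value held in each of the 3, and in Olfm4-led cells LApcL and WT differed by −0.09 only. In LApcL crypt cells the adenoma markers Sox17, Msx1 and Notum, at 0.175 CPM or lower in WT, reached 8.45, 14.4 and 19.8% of their adenoma level, and the Phgdh difference from WT came to 14.3% of its own adenoma level. The parts of free or misplaced adenoma RNA, and of recombined cells that may be in this class, in that difference were not tested.

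Enterocyte-like cells of LApc had 0 of 3 members tested past 2-fold against WT, beside 2.28% of all genes higher and 1.58% lower. Trib3 was at 1.53, 6.73 and 3.28 CPM in WT, LApc and LApcL, all under 10 CPM. In LApcL, 1 of 6 was 2-fold higher than in WT, Phgdh with 12.4 against 3.68 CPM and a ratio of 1.76 (1.41 to 2.12), beside 1.9% of all genes. Shmt2, Mthfd2 and Asns lay 0.75, 0.52 and 0.39 above WT in LApcL. Here too Sox17, Msx1 and Notum, at 0.238 CPM or lower in WT enterocyte-like cells, reached 11.4, 11.1 and 14.3% of their adenoma level in LApcL, and the differences of Phgdh, Shmt2, Mthfd2 and Asns from WT came to 9.03, 10.6, 7.71 and 15.4% of theirs. In LApc enterocyte-like cells Sox17 was at 0.833% of its adenoma level. The part of free RNA was not tested.

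Along the villus Ddit3 and Trib3 were higher where Asns was lower, and Chac1 was not. Enterocyte-like cells were ranked by the share of UMIs from 6 genes of the upper villus. From the lowest to the highest tertile Ddit3 was at 14.0, 17.5 and 24.0 CPM in WT, 8.98, 14.3 and 23.6 CPM in LApc and 7.40, 9.39 and 24.8 CPM in LApcL. Trib3 was at 0.284, 1.60 and 2.95 CPM in WT, 2.73, 6.16 and 14.0 CPM in LApc and 1.11, 2.07 and 7.93 CPM in LApcL. Both genes were highest in the upper tertile of each library. Chac1 was at 0.851, 0.501 and 0.114 CPM in WT, 1.14, 0.262 and 0 CPM in LApc and 0.555, 0.563 and 0 CPM in LApcL, on 10 UMIs or fewer in each.

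Asns was at 23.3, 16.5 and 12.8 CPM in WT, 21.4, 15.1 and 4.43 CPM in LApc and 29.1, 24.4 and 14.3 CPM in LApcL. Atf4 was at 98.5, 96.3 and 93.5 CPM in WT, at 91.6, 82.3 and 74.7 CPM in LApc and at 83.5, 96.3 and 84.2 CPM in LApcL, without a common direction. In Apoa4-led cells, the cluster of upper-villus enterocytes, Ddit3 exceeded the other enterocyte-like cells by 0.85 (0.59 to 1.10), 1.01 and 1.45 on the log2 scale and Asns was at −0.59, −1.55 and −1.21. The immediate early gene Fos was at 109, 222 and 177 CPM in these cells, and median UMIs fell from the lowest to the highest tertile, from 10366 to 8906 in WT and from 7236 to 4443 in LApc. Over the 3 libraries the median share of mitochondrial UMIs was 9.80% in Apoa4-led cells, against 6.07% in Reg1-led and 5.945% in Fabp6-led enterocyte-like cells. The part of Fos, depth and mitochondrial share in the Ddit3 and Trib3 levels was not tested.

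**Figure D4:**
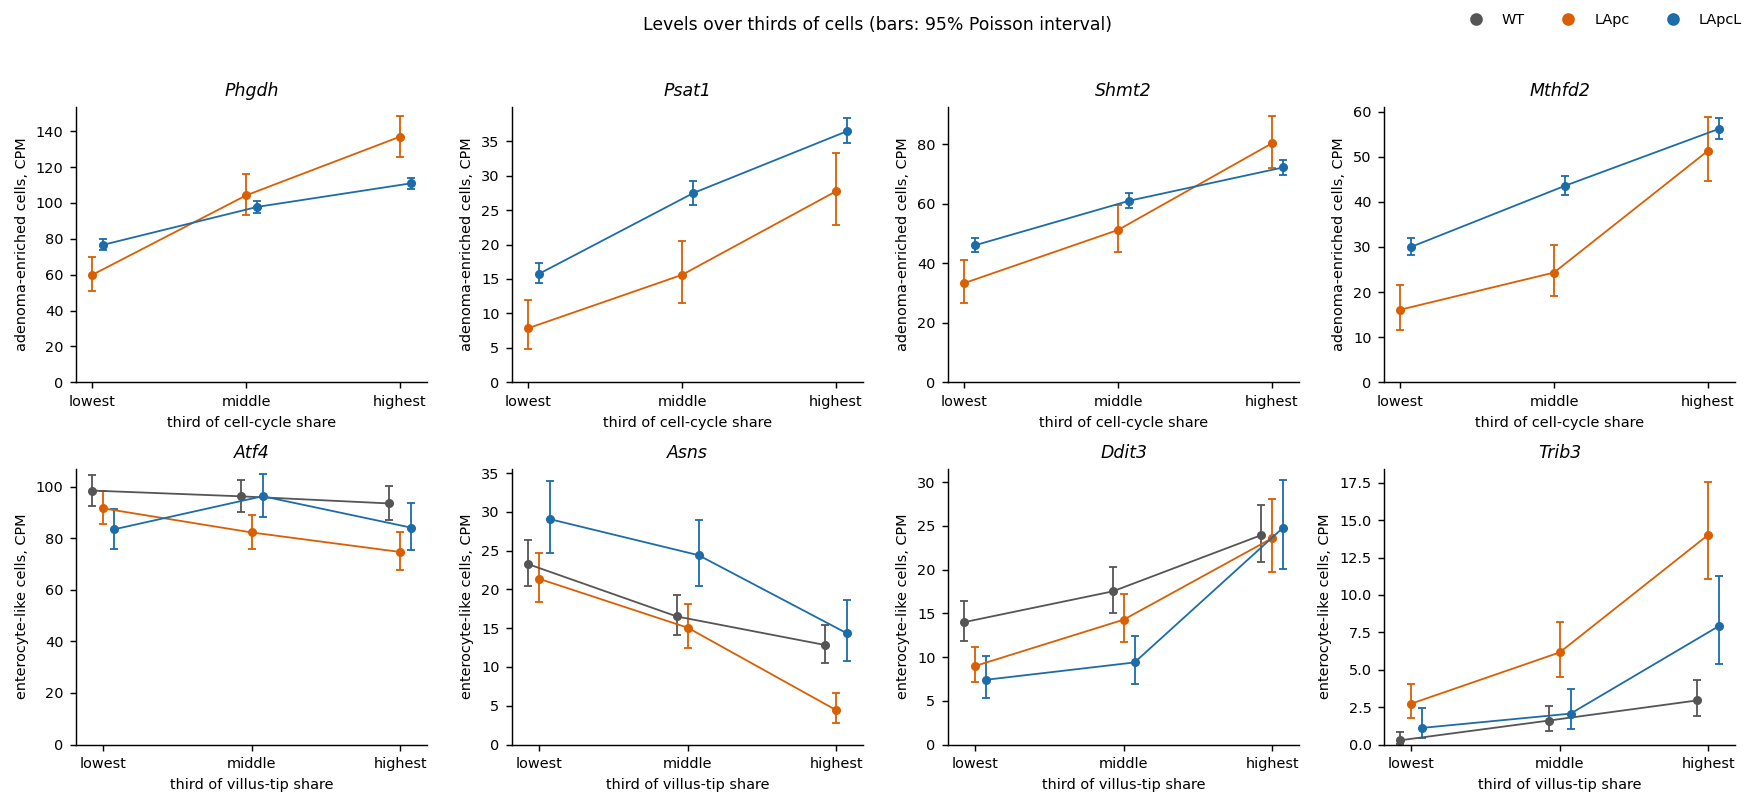
Levels (CPM, bars for 95% Poisson intervals) of Phgdh, Psat1, Shmt2 and Mthfd2 across tertiles of cell-cycle share in LApc and LApcL adenoma-enriched cells, in the upper row, and of Atf4, Asns, Ddit3 and Trib3 across tertiles of upper-villus share in enterocyte-like cells of the 3 libraries, in the lower row. In LApc Phgdh goes from 59.9 to 137 CPM over the cell-cycle tertiles, and in the lower row Ddit3 and Trib3 go up in each library while Asns goes down.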

How the data were processed

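Single-cell 3′ libraries (10x Chromium) of EpCAM-sorted small intestinal cells were compared, 1 per genotype. The deposited matrices hold raw UMI counts per gene and barcode, which the authors made with Cell Ranger 2.1.1 on mm10 (GRCm38), per the labels and methods; the kit version for each library and the use of strand are not given in the sources used here.

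Barcodes in the lowest or highest 1% of genes detected and those with over 20% mitochondrial UMIs were removed. Scrublet scores (scanpy 1.11.5) ranked likely doublets, and the top 9.16, 10.6 and 13.9% of WT, LApc and LApcL barcodes that passed were taken out, because the automatic threshold called only 4 in LApc. Cells were integrated and clustered in Seurat 5.3.0 (R 4.3.3; 20 components, resolution 0.2, 20 neighbours) on 923 features, with 161 genes of the lists left out, and clusters were named from fixed markers. A Ccl9-led and an Rgs13-led cluster stayed unnamed. The Wnt and transit-amplifying class was split by mutual nearest neighbours (53 neighbours) and leidenalg 0.10.2; a Hbb-bs-led subcluster with markers of other classes was set aside.

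UMI counts were summed over the cells of a class and library and given as CPM with exact Poisson intervals, and ratios with the exact conditional binomial interval (scipy 1.17.1, Python 3.11.15). With 1 library per genotype no test was possible. Ratios and their intervals were tested on simulated data. TMM factors came from edgeR 4.0.16. A count of 0 in a class allows up to 3 UMIs.

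The members and the lists were chosen with earlier results of these data known. All 10 members are named. Of each related list up to 4 genes with the highest and lowest ratio in a comparison are named, and for the proline list and the genes inside the Wfdc18-led state also others chosen after their values were seen. For likeness, the 5 genes with the highest correlation are named for Pycr1 and 4 of the 5 for Psat1. A gene of the proline list, and the counts over that list, are not reported here. Promoter sequences are from RefSeq on GRCm38.p6, and all 10 members matched.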

Additional observations from a re-analysis of the deposited data

Results flagged for a closer look

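Asns differed in direction between the genotypes in 2 comparisons. Over crypt cells of the same library its log2 ratio in adenoma-enriched cells was 0.22 in LApc and −0.26 in LApcL, but −0.08 and −0.40, the same direction, with TMM factors, and in enterocyte-like cells its ratio to WT was −0.25 in LApc and 0.39 in LApcL. Phgdh in crypt cells stood at −0.60 of WT in LApc and 0.36 in LApcL. The comparisons with WT share the WT library, and none of these differences between genotypes was tested.

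Barcodes over the mitochondrial limit were outside the comparisons above. In LApcL, 413 such barcodes held 39.9 CPM of Asns, 66.5 CPM of Phgdh, 53.2 CPM of Shmt2 and 31.3 CPM of Mthfd2 among non-mitochondrial UMIs. The 2342 such barcodes of LApc held 15.9, 11.7, 16.7 and 14.6 CPM and the 62 of WT 8.69, 17.4, 14.5 and 2.90 CPM. The WT values rest on 3, 6, 5 and 1 UMIs. The kept cells held 38.4, 82.4, 54.2 and 42.0 CPM of the same genes in LApcL and 35.1, 31.0, 27.1 and 26.2 CPM in LApc.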

How the results depend on the processing

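No paired analysis was possible because each genotype has 1 library. Of 575 alternative values for 64 ratios of the members, 503 lay inside the main counting interval, 72 outside it, and none of the called ratios turned its direction. Asns in WT and LApcL and Ddit3 (crypt over enterocyte-like cells), and Ddit3 in LApc and Psat1 in LApcL (adenoma-enriched over crypt cells), crossed 2-fold under some alternatives, with the values given above. The cause of each change was not tested, except that a CPM minimum sets how many genes are compared. The share of all genes past 2-fold was computed at a minimum of 10 CPM only. Nothing is therefore read from the counts of members or listed genes at other minima. With no minimum, the members past 2-fold went from 3 to 5 (adenoma-enriched over crypt cells, LApc), 1 to 4 (LApcL), 0 to 1 and 0 to 2 (crypt cells, LApc and LApcL over WT), 5 to 8 (crypt over enterocyte-like cells, LApcL), and 0 to 1 and 1 to 3 (enterocyte-like cells, LApc and LApcL over WT). With a minimum of 50 CPM they went from 3 to 1, 1 to 0 and 2 to 0 (LApcL over LApc), 6 to 0 in WT and LApc and 5 to 1 in LApcL (crypt over enterocyte-like cells), and 1 to 0 (enterocyte-like cells, LApcL over WT). With adenoma-enriched cells taken by marker UMIs the LApcL count of adenoma-enriched over crypt cells went from 1 to 0. For all related lists, the genes past 2-fold in either direction went from 16 to 28 with no minimum and 8 at 50 CPM (adenoma-enriched over crypt cells, LApc), 5 to 17 and 2 (LApcL), 8 to 16 and 2 (LApcL over LApc), 21 to 36 and 12 (crypt over enterocyte-like cells, WT), 30 to 17 at 50 CPM (LApc) and 18 to 32 with no minimum (LApcL). Pycr1 in LApc adenoma-enriched cells, 40.8 CPM, became 32.2 with TMM factors, 57.9 without ribosomal and mitochondrial genes, 52.6 as the mean of single cells and 29.3 without the 1% of cells with most. Without those cells LApc crypt cells had no Pycr1 UMI, so no ratio was computed. Its ratio of Wfdc18-led to other adenoma-enriched cells in LApcL went from 0.50 to 1.46 at resolution 0.4. TMM factors also shifted crypt over enterocyte-like ratios by −0.20 in WT and in LApc and enterocyte-like LApcL over WT ratios by −0.19. Depth limits Chac1, Trib3 and, outside the adenoma and secretory cells, Pycr1, which rest on few UMIs.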

Other observations

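In barcodes over the mitochondrial limit Ddit3 was higher than in kept cells of LApc and LApcL, and Trib3 was higher in all 3 libraries. The WT values there rest on 62 barcodes, with 5 UMIs of Ddit3 (4.70 to 33.8 CPM) and 4 of Trib3 (3.16 to 29.7 CPM). The WT count of Ddit3 is too small to show a difference or its absence. In the order WT, LApc and LApcL, Ddit3 stood at 14.5, 34.7 and 25.6 CPM of their non-mitochondrial UMIs and at 14.3, 13.2 and 7.33 CPM in kept cells, and Trib3 at 11.6, 14.3 and 9.49 CPM against 0.980, 4.20 and 2.47 CPM. Fos stood at 174, 257 and 167 CPM there, against 45.7, 77.3 and 44.1 CPM in kept cells.

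Enteroendocrine-like cells, the hormone-producing class, held 21.8, 53.1 and 29.9 CPM of Psat1 in WT, LApc and LApcL, with counting intervals of 17.0 to 27.5, 43.2 to 64.5 and 23.0 to 38.0. Phgdh, the step before it, stood at 22.1, 8.49 and 41.8 CPM in the same cells, on 71, 16 and 91 UMIs, so the library highest in Psat1 was lowest in Phgdh. The adenoma markers summed to 28.0, 111 and 519 CPM in these cells. The part of free or misplaced adenoma RNA in the LApc and LApcL values was not tested. Goblet-like cells held more Asns in WT, 102 CPM, than in LApc, 55.8 CPM, or LApcL, 58.6 CPM, and more Atf4, at 164, 121 and 132 CPM.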
